A study of Mus musculus with 6 samples.

Results

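The genes described here encode sensors of foreign or self RNA and DNA in the cytosol and in endosomes, together with the proteins that carry, tune or prevent their signal. They were chosen by symbol from the deposited table of normalised counts, and the raw counts were joined by gene identifier. The rule names 10 genes: Ddx58, Ifih1, Dhx58, Mavs, Tlr3, Zbp1, Adar, Trim25, Trex1 and Samhd1. Of these, 9 are among the 24521 genes of that table, and Trex1 is not. All 9 had enough reads to be tested and are called the sensor genes below.

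Ddx58 encodes RIG-I, Ifih1 encodes MDA5 and Dhx58 encodes LGP2, a family of helicases that bind double-stranded RNA in the cytosol. RIG-I and MDA5 signal through MAVS on the mitochondrial membrane to the kinases and transcription factors that switch on type I interferon genes, while TLR3 reads double-stranded RNA inside endosomes. ADAR, TREX1 and SAMHD1 keep a cell's own nucleic acids from setting off this response by editing RNA, degrading DNA and limiting deoxynucleotide supply. Several of these genes are themselves induced by interferon, so that the pathway raises the level of its own sensors.

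Polyadenylated RNA was sequenced from mouse lung lobes dissected at E18.5 without aeration. Of the 6 libraries, 3 are wild type and 3 are labelled Mll3FDC/FDC (Mll3 KO), homozygous for an allele of Mll3, the histone methyltransferase gene whose symbol is Kmt2c. No treatment or infection is named for either genotype. Neither a strain nor the extent of the deletion is stated, and it is not stated that the 3 samples of a genotype came from separate embryos. The p-values below therefore cover only the spread between these libraries.

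Library totals ran from 20158689 to 23305306 reads. Kmt2c (ENSMUSG00000038056, mm10 chromosome 5, 25271798 to 25498783) was at 162, 179 and 162 CPM (counts scaled to library size, here after TMM normalisation) in wild type and at 143, 171 and 159 in the libraries labelled knockout. Its log2 fold change was −0.09 ± 0.08 (SE, adjusted p = 0.74), and counts over the whole gene cannot check an allele whose deleted part is not given. Knockout 3 had 59951 reads of Xist and 4 of a set of Y-linked genes, against 6 to 27 and 7414 to 9300 in the other 5 libraries. Knockout 3 therefore came from a different embryo than knockouts 1 and 2. None of the sensor genes lies on X or Y. Lung markers were present in all libraries, with Sftpc, the type 2 cell surfactant gene, at 11100 to 13500 CPM.

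Promoter windows from RefSeq (GRCm38.p6, the same assembly as mm10; 250 bases before to 50 bases after each start) were found for 8 of the 10 genes, 11 windows in all. They were searched on both strands for GAAA and GAAA set 2 bases apart, the core of the interferon-stimulated response element, and for TTCNNNGAA, the core of the gamma-activated site, which reads the same on both strands. Matches in 4 genes are printed because they show where in these windows the searched letters lie. Each is written 5′ to 3′ on the gene's strand with the core in capitals.
Ifih1, chr2:62646206-62646233, minus strand: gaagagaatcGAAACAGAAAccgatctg
Ddx58, chr4:40239804-40239833, minus strand: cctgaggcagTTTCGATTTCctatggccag
Samhd1, chr2:157135312-157135341, minus strand: acaccaccctTTCGGAGAAacacaagggcg
Adar, chr3:89730730-89730759, plus strand: gggaagccttTTCAAGGAAacgaaagtgaa

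The response-element core lay on the gene's own strand in Ifih1, from base 33 of the transcript, and on the opposite strand in Ddx58, from base 3. Both genes therefore hold it just inside the transcribed region. Dhx58, the other RNA helicase gene, and Zbp1 had no window and were not searched. The response-element core was found in 2 of the 11 windows (18.2%), and in 3.44% of all 32851 windows of that length. The gamma-activated core lay 235 bases before the RefSeq start of Samhd1. That start lies inside the counted Samhd1 gene, which begins at 157135265 on the minus strand, so the core is nearer to the counted gene's own start. In Adar the core lay from transcript base 23 in 1 of the 3 RefSeq start windows. For that Adar window alone among the 11, the bases that follow the start were not found in a GENCODE transcript of the gene. Whether the other starts are GENCODE transcript starts was not checked. The gamma-activated core was found in 2 of the 11 windows as well (18.2%), against 8.3% of all windows. A match describes letters only and does not show binding.

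Levels between genes were compared per exon length, as RPKM (reads scaled to exon length and library size). In wild-type lungs Trim25, which encodes an E3 ubiquitin ligase that activates RIG-I, was the highest at 27.2 ± 1.96 RPKM (SD, n = 3), followed by Samhd1 at 19.8 ± 1.36. Ddx58 was at 10.7 ± 1.08, Mavs at 8.95 ± 0.28, Adar at 8.44 ± 0.89, Ifih1 at 5.14 ± 0.65, Tlr3 at 4.29 ± 0.23, Dhx58 at 2.84 ± 0.27 and Zbp1 at 0.49 ± 0.11 RPKM. Neighbours in this order overlapped between libraries for Mavs and Adar and for Ifih1 and Tlr3, and did not overlap elsewhere.

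Among all tested genes the wild-type level of Trim25 stood at percentile 89.5 of RPKM and that of Zbp1 at percentile 11.2. The RNA helicases spanned the middle of the range, from Ddx58 at percentile 70.3 to Dhx58 at 36.7. In knockout lungs the same 9 genes were ordered likewise, apart from Mavs (8.78 ± 0.49 RPKM) standing above Ddx58 (8.65 ± 0.56) and Tlr3 (3.76 ± 0.10) above Ifih1 (3.65 ± 0.44). Each of these 2 pairs overlapped between knockout libraries.

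**Figure D1:**
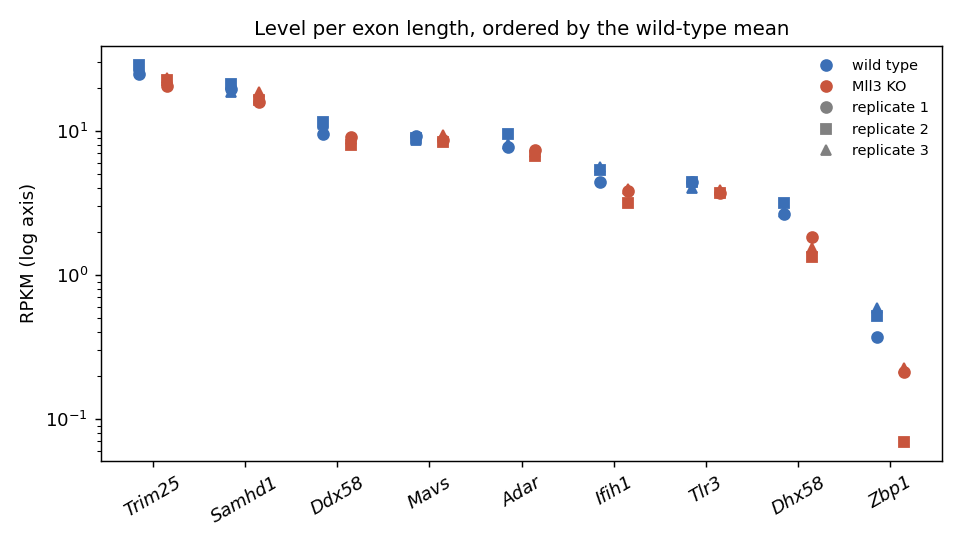
Level of each sensor gene in RPKM on a log axis, by gene in the order of the wild-type mean, with 1 point per library (blue wild type, red Mll3 KO; marker shape gives the replicate). Trim25 and Samhd1 stand highest, and Zbp1 lies below 1 RPKM in every library.

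None of the 9 sensor genes passed the test between genotypes (edgeR quasi-likelihood, Benjamini-Hochberg adjusted p over 19042 genes, threshold 0.05). Among all tested genes 0.305% passed as lower in knockout and 0.063% as higher. All 9 had a negative log2 fold change (Mavs turned to 0.005 when scaled by library size only), as did 47.4% of all tested genes, and 8 had an unadjusted p under 0.05, against 6.02% of all tested genes that were lower at that level. In 7 of the 9 the 3 knockout libraries all lay below the 3 wild-type libraries, a pattern seen in 8.45% of all tested genes. The median log2 fold change was −0.30 over the sensor genes and 0.01 over all tested genes. In whole lung, fewer cells of a type and less RNA per cell cannot be told apart.

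Dhx58 (ENSMUSG00000017830, mm10 chromosome 11, 100694884 to 100704271) encodes LGP2, the helicase that lacks the signalling domains of RIG-I and MDA5 and modulates both. It was at 8.67, 10.28 and 8.89 CPM in wild type 1, 2 and 3, and at 6.07, 4.35 and 4.99 CPM in knockout 1, 2 and 3. The highest knockout library was below the lowest wild-type library. The log2 fold change was −0.85 ± 0.16 (SE; 95% interval −1.20 to −0.50), a change in level of −44.5%, and it did not pass (adjusted p = 0.061). DESeq2 called Dhx58 lower (adjusted p = 0.0030), and so did edgeR with a term for the prefix of the sample titles (0.019). Without knockout 1 edgeR also called it lower (0.044), where 0.184% of all genes were called lower. In all, 4 of 15 alternative settings called Dhx58 lower, edgeR with no low-count filter among them. It did not pass in limma voom (adjusted p = 0.084) or with knockout 3's Xist status as a term (0.13). Nor did it pass in edgeR without any other single library (0.148 to 0.233).

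Ifih1 (ENSMUSG00000026896, mm10 chromosome 2, 62595798 to 62646255) encodes MDA5, the sensor of long double-stranded RNA. Its level was 35.95, 44.0 and 46.0 CPM in the wild-type libraries and 31.1, 25.7 and 32.5 CPM in the knockout libraries. The genotypes did not overlap, with wild type 1 nearest to the knockouts. The log2 fold change of −0.50 ± 0.12 (95% interval −0.76 to −0.23) did not pass in edgeR (adjusted p = 0.14) and passed in DESeq2 (adjusted p = 0.013).

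Ddx58 (ENSMUSG00000040296, mm10 chromosome 4, 40203773 to 40239828) encodes RIG-I, the sensor of RNA with 5′ triphosphate ends. It was at 66.8, 81.1 and 78.5 CPM in wild type and at 64.0, 56.5 and 62.3 CPM in knockout lungs. Wild type 1 was again the lowest of its genotype, only slightly above knockout 1. Its log2 fold change was −0.31 ± 0.09 (95% interval −0.50 to −0.11), with an adjusted p of 0.21 in edgeR and 0.10 in DESeq2.

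Zbp1 (ENSMUSG00000027514, mm10 chromosome 2, 173206612 to 173218923) encodes a sensor of Z-form nucleic acids that can start necroptosis through RIPK3. It had the fewest reads of the sensor genes, 29, 42 and 44 in the wild-type libraries and 18, 5 and 17 in the knockout libraries. After scaling these were 1.31, 1.83 and 2.07 CPM against 0.75, 0.24 and 0.79 CPM, with no overlap. The log2 fold change of −1.52 ± 0.39 (95% interval −2.38 to −0.65) was the furthest from 0 among the sensor genes and did not pass (adjusted p = 0.16). Counting error is large at these numbers, and without knockout 2, the library with 5 reads, the estimate was −1.16.

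Tlr3 (ENSMUSG00000031639, mm10 chromosome 8, 45395665 to 45411080), the endosomal receptor for double-stranded RNA, was at 22.9, 23.1 and 21.0 CPM in wild type and 19.2, 19.4 and 20.2 CPM in knockout lungs. The groups did not overlap, although wild type 3 and knockout 3 differed by less than 1 CPM. The log2 fold change of −0.19 ± 0.08 had an upper 95% limit close to 0 (−0.376 to −0.002) and an adjusted p of 0.46.

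Mavs (ENSMUSG00000037523, mm10 chromosome 2, 131234063 to 131248025), the adaptor that RIG-I and MDA5 share, was at 30.9, 29.9 and 29.0 CPM in wild type and at 28.8, 28.1 and 31.2 CPM in knockout lungs. The genotypes overlapped fully, with a knockout library the highest and another the lowest of the 6. The log2 fold change was −0.03 ± 0.08 (adjusted p = 0.94), and its 95% interval of −0.21 to 0.15 was the only one among the sensor genes to hold 0. Its sign turned with scaling by library size only (0.005) and without knockout 2 (0.002).

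**Figure D2:**
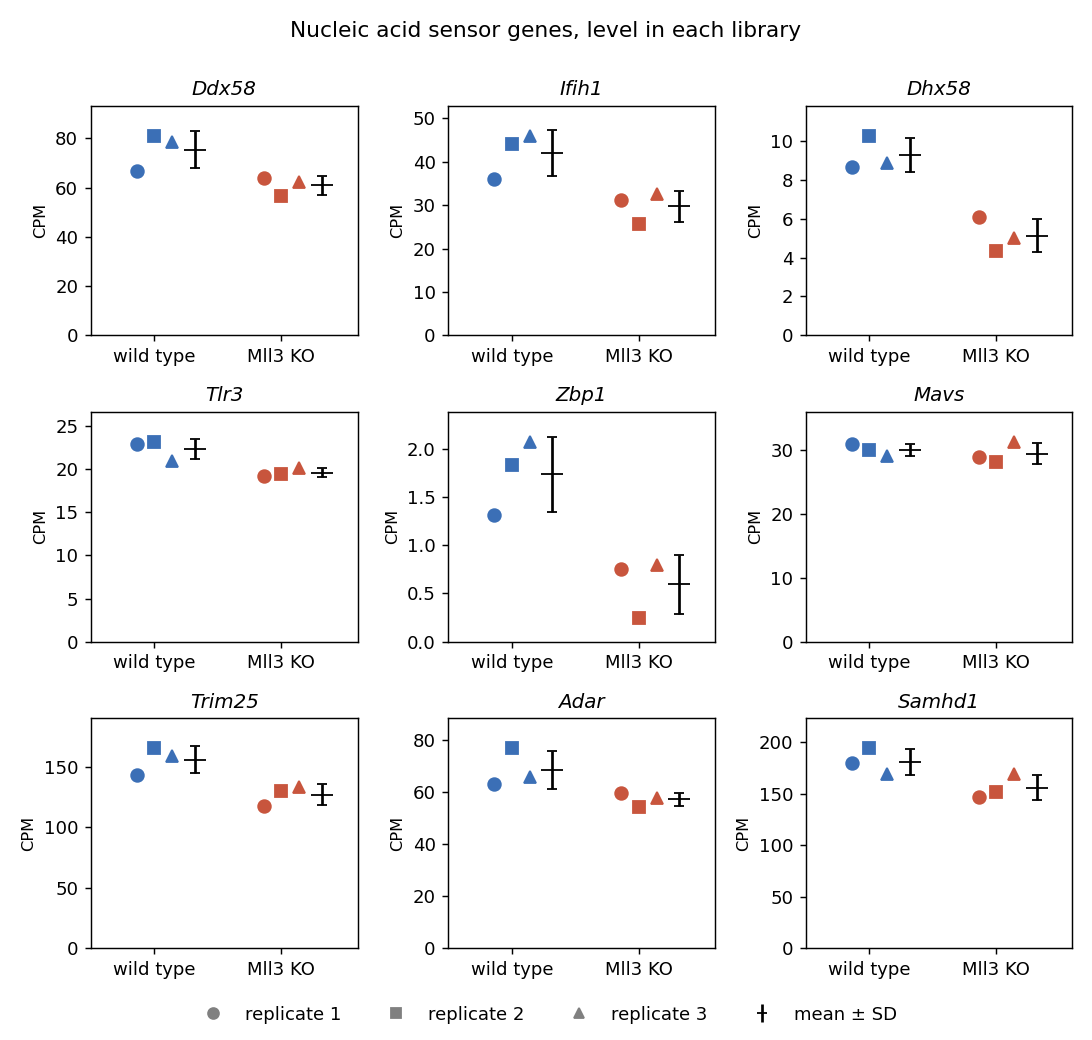
Level of each of the 9 sensor genes in CPM after TMM scaling, 1 panel per gene with an axis from 0, 1 point per library, and the mean with its SD for each genotype (n = 3). The points of the 2 genotypes are apart in all panels but Mavs and Samhd1.

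Trim25 (ENSMUSG00000000275, mm10 chromosome 11, 88999376 to 89020293) was at 144, 165 and 159 CPM in wild type and at 118, 130 and 134 CPM in knockout lungs. All knockout libraries were below all wild-type libraries. On the log2 scale the change was −0.30 ± 0.08 (95% interval −0.46 to −0.13, adjusted p = 0.16). DESeq2 (adjusted p = 0.039) and edgeR with the prefix term (0.034) called it lower. Limma voom did not (adjusted p = 0.205), nor did edgeR without any single library (0.18 to 0.39).

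Adar (ENSMUSG00000027951, mm10 chromosome 3, 89715022 to 89753446) encodes the enzyme that turns adenosine into inosine in double-stranded RNA, which keeps MDA5 from reading the cell's own transcripts. It was at 63.2, 76.7 and 65.6 CPM in wild type and at 59.4, 54.4 and 57.6 CPM in knockout lungs. Wild type 2 stood apart above the rest, and the other wild-type libraries lay just above the knockouts. This gave a log2 fold change of −0.26 ± 0.08 (95% interval −0.45 to −0.07, adjusted p = 0.28). The long, interferon-inducible form and the short form of ADAR share most exons, and a count per gene does not separate them.

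Samhd1 (ENSMUSG00000027639, mm10 chromosome 2, 157097533 to 157135265), the deoxynucleotide triphosphatase, was at 180, 194 and 169 CPM in wild type and at 147, 151 and 169 CPM in knockout lungs. Knockout 3 (169.4) was above wild type 3 (168.9), so the genotypes overlapped. Knockout over wild type gave a log2 fold change of −0.22 ± 0.08 (95% interval −0.39 to −0.04, adjusted p = 0.33).

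Trex1 (ENSMUSG00000049734, mm10 chromosome 9, 109057933 to 109059734), the exonuclease that degrades cytosolic DNA, was listed at 0 reads in all 6 libraries. All 1147 of its exon bases (100%) lie inside exons of Atrip on the same strand, and no other sensor gene shares an exon base with another gene on its strand. By default featureCounts assigns no read that falls in exons of more than 1 gene, and the command line in the file header carries no option that changes this, so 0 is not a measurement of Trex1. Atrip, a gene of the DNA damage checkpoint, was counted over the rest of its exons at 14.7, 16.6 and 15.8 CPM in wild type and 17.2, 15.6 and 15.8 CPM in knockout lungs (log2 fold change 0.04, adjusted p = 0.92).

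**Figure D3:**
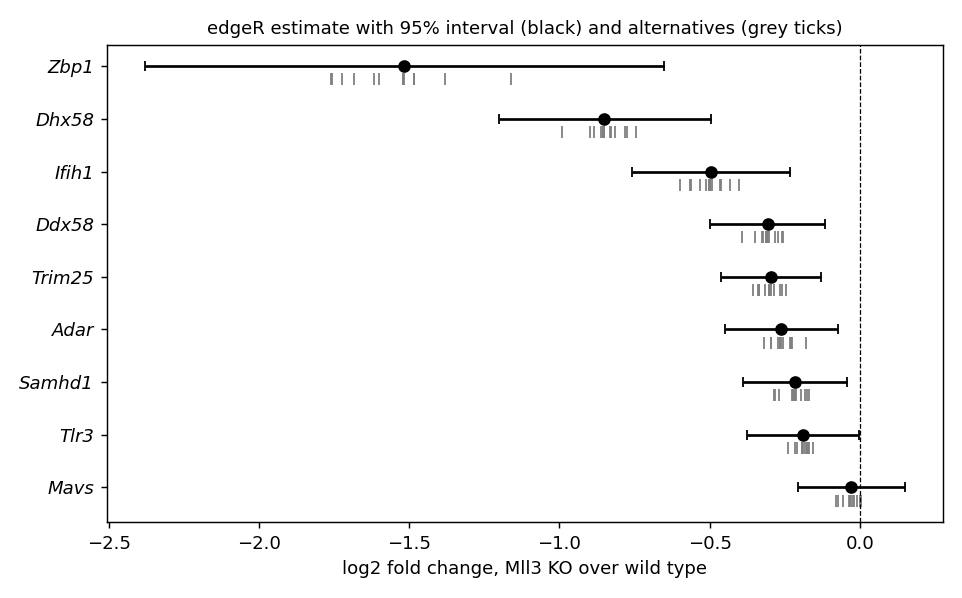
Log2 fold change of Mll3 KO over wild type for each sensor gene, with the edgeR estimate and its 95% interval in black and the estimates under the alternative settings as grey ticks below. The intervals of 8 genes lie below 0, that of Mavs holds 0, and no gene passed the adjusted test.

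Read by library, the lowest value of all 9 sensor genes came from a knockout, in 6 of them knockout 2 and in 3 knockout 1. The highest came from a wild type in 8 of 9, in 6 of them wild type 2, and from knockout 3 for Mavs. Knockout 2 was furthest down for all 3 RNA helicases, Zbp1, Adar and Mavs. Knockout 1 was the lowest for Tlr3, Trim25 and Samhd1.

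Sample titles begin with 1 of 2 prefixes whose meaning is not stated, one on wild types 1 and 2 and knockout 1, the other on wild type 3 and knockouts 2 and 3. Within the first, all 9 sensor genes were lower in knockout, and within the second 8 of 9 were, the exception being Mavs (log2 difference 0.03). The log2 difference of Dhx58 was −0.64 in the first and −0.93 in the second, that of Ifih1 was −0.36 and −0.66, and that of Zbp1 −1.06 and −1.995. For Samhd1 the values were −0.35 and −0.08, and for Tlr3 −0.26 and −0.08. Each prefix has a single library of 1 genotype, so these values carry no test. Under the prefix term edgeR called 2 sensor genes lower, Dhx58 and Trim25, where it called 2.54% of all tested genes lower. DESeq2 called 3, Dhx58, Ifih1 and Trim25, where it called 1.76% of genes lower and gave Zbp1 no adjusted p. Without a filter on low counts edgeR called 5, those 3 with Ddx58 and Zbp1, where 0.982% of 34615 genes were called lower, and at a threshold of 0.1 only Dhx58 passed, where 0.709% of genes did. Leaving out knockout 3, the library with Xist reads, kept all 9 estimates negative with none passing (Dhx58 −0.83, Ifih1 −0.56, Ddx58 −0.33, Zbp1 −1.76), and Samhd1 then no longer overlapped.

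Other nucleic acid sensors were read from a list of 21 genes, all tested, of which 1 fell, 0 rose and 20 did not pass. The median log2 fold change was −0.32, against 0.01 over all tested genes, and 14 of 21 were negative. Among all tested genes 0.305% passed as lower, 0.063% passed as higher and 47.4% were negative. Ifit1, which binds RNA lacking the host's cap methylation, fell from 8.81, 11.1 and 11.5 CPM in wild type to 3.94, 2.01 and 2.89 CPM in knockout lungs (log2 fold change −1.82 ± 0.23, adjusted p = 0.021). That call was lost in limma voom (adjusted p = 0.050), with knockout 3's Xist status as a term (0.064) and without wild type 1 (0.051), wild type 2 (0.11), wild type 3 (0.11) or knockout 3 (0.075).

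Ddx60, a helicase linked to RIG-I signalling, was at 10.2 ± 0.54 and 5.17 ± 1.14 CPM (−0.97 ± 0.17) at the edge of the threshold (adjusted p = 0.051; 0.00042 in DESeq2). Oas3, a synthetase of the 2′-5′ oligoadenylates that activate RNase L, was at 1.75 ± 0.45 and 0.46 ± 0.22 CPM (−1.90 ± 0.37, adjusted p = 0.067). Eif2ak2, the kinase PKR that stops translation on double-stranded RNA, was at 76.5 ± 7.04 and 61.1 ± 3.20 CPM (−0.32 ± 0.08, adjusted p = 0.15). In this list 5 genes also belong to the list of interferon-stimulated genes, with a median of −1.11. The other 16 had a median of −0.15 with 9 negative, where 47.4% of all tested genes were negative.

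The endosomal receptors for single-stranded RNA and for DNA had few reads. Tlr7 was at 5.10, 4.88 and 4.04 CPM in wild type and 3.64, 3.91 and 3.59 CPM in knockout lungs (−0.33 ± 0.17, adjusted p = 0.52). Tlr8 overlapped widely, at 4.97, 5.62 and 3.06 against 4.56, 3.23 and 4.48 CPM (−0.15 ± 0.24, adjusted p = 0.87). Both genes are X-linked, and knockout 3, the library with Xist reads, lay nearest to knockout 1 for each. Tlr9 was at 1.49, 1.79 and 0.75 against 0.59, 0.78 and 0.42 CPM (−1.17 ± 0.38, adjusted p = 0.28), with overlap at wild type 3. Cgas, the cytosolic DNA sensor that makes cyclic GMP-AMP, was at 7.06 ± 0.96 and 7.41 ± 0.58 CPM (0.07, 95% interval −0.26 to 0.40, adjusted p = 0.91).

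Downstream of the sensors, a list of 25 adaptors, kinases and transcription factors had 1 gene that fell, 0 that rose and 24 that did not pass. Among all tested genes 0.305% fell and 0.063% rose. The median log2 fold change of the list was 0.00. Irf7, the factor that amplifies type I interferon transcription, fell from 18.2, 23.3 and 21.1 CPM to 11.6, 8.81 and 9.71 CPM (−1.05 ± 0.13, adjusted p = 0.021). Irf7 is also in the list of interferon-stimulated genes. Its call was lost in limma voom (adjusted p = 0.051), with the Xist term (0.056) and without any 1 library except knockout 1 (0.051 to 0.11). The other 24 lay between −0.13 and 0.07, Ripk1 (−0.09, adjusted p = 0.77) and Irak1 (0.07, adjusted p = 0.73) among them. Among them Irf3, the factor that MAVS and STING signalling activate first, was at 57.1 ± 0.90 and 58.1 ± 3.39 CPM (0.02, 95% interval −0.13 to 0.18, adjusted p = 0.94). Tmem173, which encodes STING, was at 13.3 ± 1.18 and 13.4 ± 1.83 CPM (0.01, adjusted p = 0.99), and Unc93b1, which carries endosomal receptors to their compartment, at 31.1 ± 3.79 and 28.6 ± 3.77 CPM (−0.12, adjusted p = 0.77).

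Of 26 tested regulators of RNA sensing edgeR passed 0, and the median was −0.01. At an unadjusted p under 0.05, 3 were lower, as were 6.02% of all tested genes. Zc3hav1, the zinc-finger antiviral protein, had the lowest p among these regulators, at 83.4 ± 7.10 and 70.2 ± 3.38 CPM (−0.25 ± 0.08, adjusted p = 0.24). Next came Nlrc5 at 2.12 ± 0.41 and 1.27 ± 0.46 CPM (adjusted p = 0.41), Tax1bp1 at 253 ± 4.56 and 228 ± 11.4 CPM (adjusted p = 0.43) and Ppp1cc, a phosphatase subunit, at 20.4 and 23.9 CPM (0.23, adjusted p = 0.54). Adarb1, the second active RNA-editing adenosine deaminase gene, was at 176 ± 13.2 and 163 ± 6.09 CPM (−0.11 ± 0.07, 95% interval −0.26 to 0.05, adjusted p = 0.64).

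Nucleases and other regulators of self DNA and RNA gave 15 tested genes with a median of 0.07, of which edgeR passed 0. An unadjusted p under 0.05 was seen for 2043 of all 19042 tested genes and for 2 of these 15. The latter were Slfn2, at 15.2 ± 0.55 and 11.2 ± 0.65 CPM (−0.44 ± 0.10, adjusted p = 0.13), and Dnase2a, the lysosomal nuclease that clears engulfed DNA, at 22.3 ± 1.40 and 26.8 ± 1.09 CPM (0.26 ± 0.08, adjusted p = 0.27). Setdb1 (0.16, adjusted p = 0.53) and Apobec1 (−0.27, adjusted p = 0.54) followed. The genotypes did not overlap for Slfn2 and Apobec1, both lower in knockout, or for Dnase2a, which was higher in knockout. Over all tested genes, 8.45% were lower with no overlap.

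**Figure D4:**
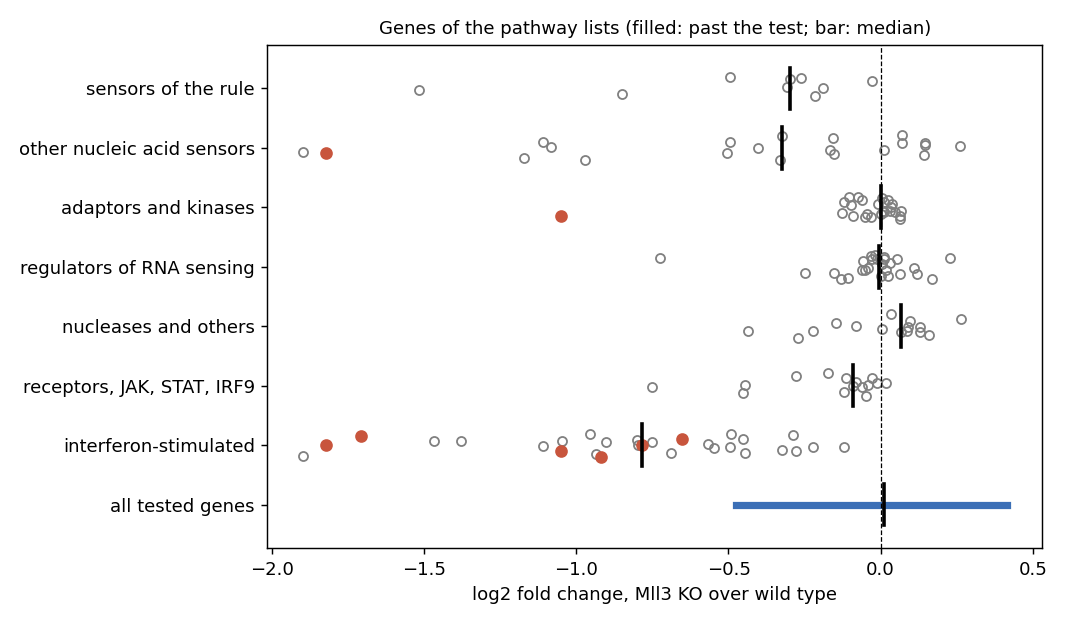
Log2 fold change of Mll3 KO over wild type for the tested genes of each pathway list, 1 circle per gene, filled where the gene passed the test, with a black bar at the list's median; the blue line spans the 5th to 95th percentile of all tested genes (−0.47 to 0.42). The sensor genes lie left of 0 with Mavs next to it (its sign turned when scaled by library size only), whereas the adaptors and kinases other than Irf7 lie between −0.13 and 0.07.

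Interferon itself was almost unread. Of 21 genes for type I, II and III interferons none had enough reads to be tested and 15 had no read in any library, Ifnb1 among them. A count of 0 allows up to 3 reads, 0.129 to 0.149 CPM per library (counting error only). Ifng had 2, 0 and 2 reads in wild type and 0, 1 and 1 in knockout lungs, and Ifna2, Ifna5, Ifnab, Ifnk and Ifnz had 1 read each in all. At this depth no difference in interferon transcripts was detectable.

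The interferon receptors and their JAK, STAT and IRF partners gave 15 tested genes with a median of −0.09. Of these 0 passed in edgeR, and 4 were lower in DESeq2, where 1.76% of all genes were called lower. In edgeR 5 were lower at an unadjusted p under 0.05, as were 6.02% of all tested genes. Named by the rule were Stat2 at 67.0 ± 6.62 and 49.2 ± 2.49 CPM (−0.45 ± 0.08, adjusted p = 0.065), Irf9 (−0.45 ± 0.09, adjusted p = 0.066) and Ifngr1 (−0.28 ± 0.06, adjusted p = 0.11). In a list of 29 interferon-stimulated genes that leaves out the sensor genes, 6 fell, 0 rose and 23 did not pass. All 29 were negative, with a median of −0.79. Among all tested genes 0.305% fell and 47.4% were negative. The 6 that fell in this list were Ifit1, Ifit3, Irf7, Usp18, Cmpk2 and Xaf1. Leaving out any 1 wild-type library took this count to 0, and leaving out knockout 2 or 3 to 1 or 2. The sensor genes' median of −0.30 lay between that of this list and that of all tested genes.

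Several sensors, Zbp1, Tlr7 and Tlr9 among them, are known for high levels in immune cells, so markers of those cells were read beside them. Macrophage and monocyte markers summed to 312 to 344 CPM in wild type and 307 to 323 CPM in knockout libraries. Of the 16 tested, 0 passed and 14 were lower in point estimate (median −0.14, from −0.911 to 1.337). An unadjusted p under 0.05 was seen for 5, 4 of them lower, and 3 were lower and 1 higher with no overlap. Over all tested genes, 6.02% were lower at that p and 8.45% lower with no overlap. Ptprc, the pan-leukocyte gene, was at 16.1 to 24.4 and 16.6 to 19.4 CPM. Siglech and Ccr9, which mark plasmacytoid dendritic cells, had 2 to 11 reads in any library, and Cd209d had no read. Of that list of 8 only 3 were tested, and its sums, 241 to 258 and 208 to 253 CPM, overlapped. Siglech and Ccr9 reached at most 0.472 and 0.345 CPM in any library, so these sums come almost wholly from the other genes of the list. Markers of dendritic cells summed to 30.6 to 38.1 and 31.6 to 34.9 CPM, and those of neutrophils to 23.0 to 40.1 and 19.6 to 52.8 CPM. Of the 7 dendritic cell markers 3 were tested and 0 passed. In point estimate 2 were lower, 1 of them at an unadjusted p under 0.05 (log2 fold changes from −1.223 to 0.01). Lymphocyte markers reached at most 8.68 CPM. Every one of these sums overlapped between genotypes, and the part of such cells in the values of the sensor genes was not tested.

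Structural cell types were read in the same way. Epithelial markers summed to 15400 to 17870 CPM in wild type and 15870 to 18340 in knockout libraries, endothelial markers to 1895 to 2302 and 1880 to 2024, and mesenchymal markers to 4014 to 4489 and 3600 to 4606 CPM. Red cell markers summed to 2849 to 4298 and 2618 to 4434 CPM. These sums overlapped between genotypes too and no gene of these lists passed, but Sftpc alone makes up most of the epithelial sum. Of the 10 epithelial markers 6 had an unadjusted p under 0.05, 4 of them lower, and 3 were lower and 2 higher with no overlap (median −0.19, lowest −0.83). Of the 7 endothelial markers 5 were lower in point estimate, 2 with no overlap (median −0.15). Over all tested genes, 6.02% were lower at an unadjusted p under 0.05 and 8.45% were lower with no overlap. Among single epithelial markers, Ager, of type 1 alveolar cells, was at 1020 to 1170 and 776 to 868 CPM, and Epcam at 93.4 to 107 and 117 to 150 CPM, both with no overlap. Whether a shift among epithelial cells bears on the sensor genes was not tested.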

How the data were processed

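Per the file headers, raw counts per gene were made by the authors with featureCounts 1.6.3 (reverse-stranded, mapping quality at least 1) on an Ensembl 98 annotation of mm10; GSNAP and bcl2fastq 2.19.1 are named in the submitters' processing notes. The authors also deposited a normalized signal, in which each library's counts are scaled by a single size factor. Multiplied by that factor it gave back at least 99.94% of counts within 0.1 read. ERCC rows (92, with 1 read in all) were left out. Tests were made on the deposited counts with edgeR 4.0.16 in R 4.3.3 (filterByExpr, TMM, robust quasi-likelihood, genotype only, Benjamini-Hochberg over 19042 genes). SE is the absolute log2 fold change over the square root of F. Values are means ± SD of 3 libraries. RPKM used the deposited gene lengths, and marker sums are CPM of library totals.

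The sensor genes and the lists were chosen with earlier results of these data known. Named are all sensor genes, Kmt2c, up to 4 genes of lowest p and every gene past the threshold in each list, and 8 fixed genes (Tlr7, Tlr8, Tlr9, Cgas, Tmem173, Eif2ak2, Irf3, Adarb1). Atrip and the single markers were chosen after their values were seen. Of the listed symbols, Trim4 was not matched, and 1 gene that the rule names is not reported here. Alternatives were DESeq2 1.42.0, limma 3.58.1 (voom, and log2 of the normalized signal plus 1), other scaling and filters, a term for the title prefix or for the Xist and Y-linked split, other thresholds, and each library left out. The tests were tried on simulated counts.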

Additional observations from a re-analysis of the deposited data

How the results depend on the processing

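No paired analysis was possible because the replicate numbers only name samples in order of deposition. Of 9 sensor genes, 8 kept a negative log2 fold change under every alternative that gave a value, and Mavs turned to 0.005 with library size only. The sensor genes called lower numbered 0 with edgeR and 5 with no low-count filter (Dhx58, Ifih1, Zbp1, Trim25 and Ddx58; 0.982% of 34615 genes), 3 with DESeq2, 2 with the title prefix as a term, 1 at a threshold of 0.1 (Dhx58), and 0 to 1 without one library. No sensor gene was called higher under any of these. Over all genes, edgeR called 12 higher and 58 lower. These became 103 and 340 with no filter, 60 and 289 with DESeq2, 0 and 8 with limma voom, 142 and 483 with the prefix term, 4 and 28 with the Xist and Y-linked term, 33 and 135 at 0.1, 0 and 2 at 0.01, and 0 to 5 and 0 to 36 without one library. Other sensors called lower (1) became 2 with DESeq2-type size factors, with at least 1 CPM in 3 libraries and with limma on the normalized signal, 4 with no filter, 3 with DESeq2, the prefix term or a threshold of 0.1, 0 with limma voom, the Xist and Y-linked term or a threshold of 0.01, and 0 to 1 without one library. Adaptors and kinases (1) became 0 with limma voom, the Xist and Y-linked term and a threshold of 0.01, and 0 to 1 without one library. Receptors, JAKs and STATs (0) became 4 with no filter or DESeq2, and 3 with the prefix term or a threshold of 0.1. Interferon-stimulated genes (6) became 17 with no filter, 18 with DESeq2, 0 with limma voom, 11 with the prefix term, 2 with the Xist and Y-linked term, 14 at 0.1, 0 at 0.01, and 0 to 5 without one library. The log2 fold change of Tlr8 turned to 0.047 with the prefix term. Without one library the log2 fold changes spanned −0.078 to 0.002 for Mavs, −0.375 to 0.023 for Tlr8, −0.027 to 0.168 for Cgas, −0.016 to 0.069 for Irf3, −0.111 to 0.08 for Tmem173 and −0.005 to 0.08 for Atrip, which all changed sign in that range. The cause of these changes was not tested. Among the sensor genes depth limits Zbp1 most, with 5 to 44 reads per library.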
